A study of Homo sapiens with 16 samples.

Results

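The genes of the hypoxia-inducible factors (HIFs) and of the proteins that sense oxygen for them were followed in HUH6, a long-established line from a human hepatoblastoma, a liver tumour of childhood. The group is a fixed list of 10 genes, found by symbol among the 58735 genes of the count table. It holds the alpha subunits HIF1A, EPAS1 and HIF3A, the beta subunits ARNT and ARNT2, the ubiquitin ligase subunit VHL, the prolyl hydroxylases EGLN1, EGLN2 and EGLN3, and the asparaginyl hydroxylase HIF1AN. The rule for membership uses no expression value. The low-count filter left 18385 genes to be tested, 9 of the 10 among them; EGLN3 was not tested.

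Total RNA was sequenced in 16 libraries. The 4 groups of 4 libraries were hypoxia with SLC-0111, hypoxia with DMSO, normoxia with SLC-0111 and normoxia with DMSO. SLC-0111, also called U-104, inhibits the carbonic anhydrases CAIX and CAXII and was given at 100 µM, with DMSO as the control treatment. Hypoxia was 1% oxygen, treatment lasted 48 h, and all cells were of the HUH6 line in DMEM with serum. The study asked how the inhibitor changes transcription at each oxygen level. The labels call the replicates technical, so p-values measure only the spread between these libraries. In 1 library of hypoxia DMSO and 1 of normoxia SLC-0111 the column name and the labels give different replicate numbers, and these libraries are called unnumbered; values of a group are given in the order of replicate number, with an unnumbered library last.

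Library totals were 3.30 to 49.25 M counts (M is 1000000). The lowest belonged to hypoxia DMSO replicate 3, and all other libraries had at least 18.28 M. Of 16 hepatoblastoma and fetal liver markers, 15 were tested, and the 16 summed to between 21341.8 and 25065.1 CPM in every library. AFP ranged from 417.8 to 745.1 CPM and GPC3 from 1574.6 to 2322.9 CPM, while DLK1 had 8 counts in all libraries together. Single markers of this list moved with oxygen: of the 15 tested, 4 rose and 5 fell in hypoxia with DMSO, and 8 rose and 5 fell with SLC-0111. Shares over all tested genes were 25.0% higher and 24.8% lower with DMSO, and 23.9% and 24.3% with SLC-0111. ALB averaged 25.2 ± 2.92 CPM in hypoxia DMSO and 76.7 ± 1.77 CPM in normoxia DMSO (SD, n = 4 each), a log2 fold change of -1.58 (edgeR adjusted p = 1.88e-12). The log2 fold change with DMSO was -1.02 for FOXA1, -0.80 for TTR and -0.70 for AFP (largest adjusted p = 9.86e-09). With SLC-0111, ALB (-0.96) and FOXA1 (-0.82) fell, while KRT19 (0.79) and FOXA2 (0.73) rose (largest edgeR adjusted p = 4.84e-06). Of 10 markers of blood, endothelial and fibroblast cells, PECAM1 (49.6 to 62.6 CPM) and PDGFRB (16.1 to 55.7 CPM) were well above the others. The summed level of these 10 was 91.2 to 99.6 CPM in hypoxia SLC-0111, 103.2 to 117.1 in hypoxia DMSO, 72.3 to 80.7 in normoxia SLC-0111 and 80.1 to 85.1 CPM in normoxia DMSO, with 2, 4, 1 and 1 of them at 0 counts in the whole group. PTPRC, CD68, HBB, DCN and LUM had 5, 9, 2, 3 and 6 counts in all libraries together. The part of these markers in the results was not tested. CPM is counts per 1000000 counts of the library total after scaling by the trimmed mean of M values (TMM). In bulk RNA, fewer cells that express a gene and less of its RNA per cell cannot be told apart.

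Cells read oxygen through the stability of the HIF alpha subunits. When oxygen is present, EGLN enzymes hydroxylate prolines of HIF alpha, VHL binds the hydroxylated protein and directs it to the proteasome, and HIF1AN (factor inhibiting HIF) hydroxylates an asparagine that otherwise contacts the coactivators EP300 and CREBBP. When oxygen is scarce, HIF alpha accumulates, pairs with ARNT and binds DNA at elements with the core ACGTG or GCGTG. These steps act on protein, so the RNA levels given here do not measure them.

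The prolyl hydroxylase genes are close relatives whose RNA differed widely in level and in its change with oxygen, so their promoter windows are shown side by side. A table of promoter windows from RefSeq (GRCh38.p14) was matched for 8 of the 10 members, from 250 bases before to 50 bases after a transcription start, and VHL and ARNT2 were not matched. Capitals mark ACGTG on either strand (CACGT on the shown strand is the reverse match). The windows are chr1:231422238-231422537 on the minus strand for EGLN1, chr19:40798941-40799240 on the plus strand for EGLN2 (the first of its 2 windows) and chr14:33951025-33951324 on the minus strand for EGLN3.
EGLN1: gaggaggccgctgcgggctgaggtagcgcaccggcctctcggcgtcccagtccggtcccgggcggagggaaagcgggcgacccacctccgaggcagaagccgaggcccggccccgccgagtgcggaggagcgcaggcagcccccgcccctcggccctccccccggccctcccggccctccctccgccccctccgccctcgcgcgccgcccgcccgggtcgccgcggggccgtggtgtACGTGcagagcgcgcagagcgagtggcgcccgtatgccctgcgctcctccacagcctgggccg
EGLN2: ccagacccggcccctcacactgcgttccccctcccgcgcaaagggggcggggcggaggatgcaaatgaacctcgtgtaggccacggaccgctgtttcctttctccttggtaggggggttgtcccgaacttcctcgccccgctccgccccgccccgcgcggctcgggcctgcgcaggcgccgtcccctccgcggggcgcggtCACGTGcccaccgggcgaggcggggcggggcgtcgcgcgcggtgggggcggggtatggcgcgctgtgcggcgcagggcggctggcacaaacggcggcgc
EGLN3: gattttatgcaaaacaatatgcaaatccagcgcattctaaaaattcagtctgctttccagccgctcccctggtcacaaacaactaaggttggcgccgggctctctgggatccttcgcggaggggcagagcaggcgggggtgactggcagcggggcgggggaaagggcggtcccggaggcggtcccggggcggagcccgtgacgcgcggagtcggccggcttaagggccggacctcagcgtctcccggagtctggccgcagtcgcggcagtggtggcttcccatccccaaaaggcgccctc

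EGLN1 held 1 match, which began 13 bases before the start. In EGLN2 the letters CACGTG gave 2 overlapping matches, on opposite strands, beginning 49 and 48 bases before the start, and its second window held none. No ACGTG stood in the windows of EGLN3, ARNT, EPAS1, HIF1A, HIF1AN or HIF3A. Of all 35116 windows of 300 bases, 21.4% held ACGTG on either strand, and 36.5% held the other form of the core, GCGTG. Among the members, GCGTG stood 3 times in 1 window of HIF3A and 1 time each in a window of EPAS1 and of HIF1A. The letters are a description of these windows and not evidence of a bound site.

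HIF1A and EPAS1 were the most abundant members per length in normoxia, and EGLN1 joined them in hypoxia. Levels between genes are given as CPM per kilobase of all annotated exons (GENCODE 29). In normoxia DMSO, EPAS1 (40.6 ± 0.596) and HIF1A (40.4 ± 0.456) were followed by VHL at 27.8 ± 1.05, EGLN1 at 8.58 ± 0.417, ARNT at 7.36 ± 0.178 and HIF1AN at 6.64 ± 0.156 CPM per kilobase (SD, n = 4 each). EPAS1 and HIF1A did not differ beyond their spread there. EGLN2 was at 1.28 ± 0.136, ARNT2 at 0.198 ± 0.0321, HIF3A at 0.0220 ± 0.0121 and EGLN3 at 0.00213 ± 0.00246 CPM per kilobase. The order below EGLN1 was thus ARNT, HIF1AN, EGLN2, ARNT2, HIF3A and EGLN3, and it held in all 4 groups. The place of EGLN2 is uncertain, since 30.6% of its exon bases are shared with a readthrough gene.

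In hypoxia the upper part of the order changed. With SLC-0111 the levels were 43.5 ± 1.38 for HIF1A, 34.0 ± 2.52 for EGLN1, 28.1 ± 0.250 for EPAS1 and 24.1 ± 0.419 CPM per kilobase for VHL. With DMSO they were 40.7 ± 4.01 for HIF1A, 38.3 ± 7.83 for EGLN1, 26.1 ± 0.686 for EPAS1 and 24.4 ± 2.04 CPM per kilobase for VHL. HIF1A and EGLN1 overlapped within the DMSO group, and so did EPAS1 and VHL. With the longest coding transcript as the length, EPAS1 instead of EGLN1 stood second in hypoxia SLC-0111, and ARNT stood above EGLN1 in both normoxia groups.

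**Figure D1:**
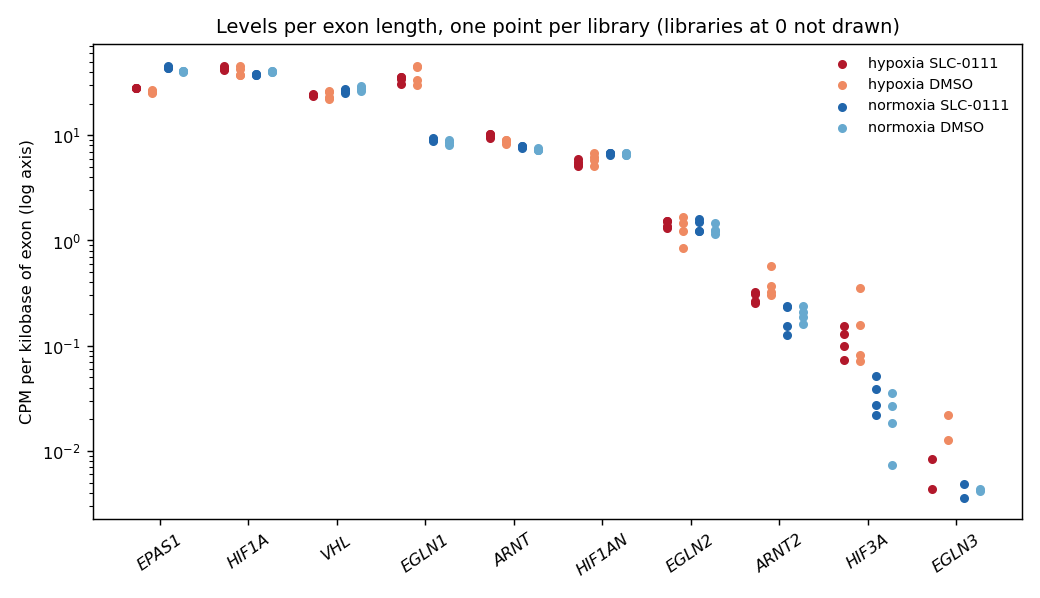
Level of each member in CPM per kilobase of exon (log axis), one point per library, coloured by group, with genes ordered by their normoxia DMSO mean. The EGLN1 points of hypoxia stand near those of HIF1A, and those of normoxia near ARNT, while HIF3A and EGLN3 lie at the bottom (libraries at 0 are not drawn).

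The RNA of most tested members changed in hypoxia, as did that of a large part of all tested genes. With DMSO, 4 of the 9 tested members rose (EGLN1, HIF3A, ARNT2 and ARNT) and 3 fell (EPAS1, VHL and HIF1AN). With SLC-0111, the same 4 and HIF1A rose, and the same 3 fell. Of all tested genes, 25.0% rose and 24.8% fell with DMSO, and 23.9% rose and 24.3% fell with SLC-0111. Whether the members' counts differ from these shares was not tested. The median log2 fold change of the tested members was 0.03 with DMSO, against -0.00 over all tested genes, and 0.20 with SLC-0111, against -0.03. The median absolute log2 fold change over all tested genes was 0.30 with DMSO and 0.27 with SLC-0111. The called changes of ARNT (0.25), VHL (-0.19) and HIF1AN (-0.17) with DMSO were smaller than that. So were those of HIF1A (0.20) and VHL (-0.13) with SLC-0111, and the other called changes were larger. Calls were made at an adjusted p under 0.05 in edgeR's quasi-likelihood test (Benjamini-Hochberg over all 18385 genes), and adjusted p-values below are of this test. HIF3A passed the filter through its hypoxia libraries, so its call is partly set by the filter. Without hypoxia DMSO replicates 1 and 3, which stand apart below, 5 rose and 3 fell with DMSO.

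**Figure D2:**
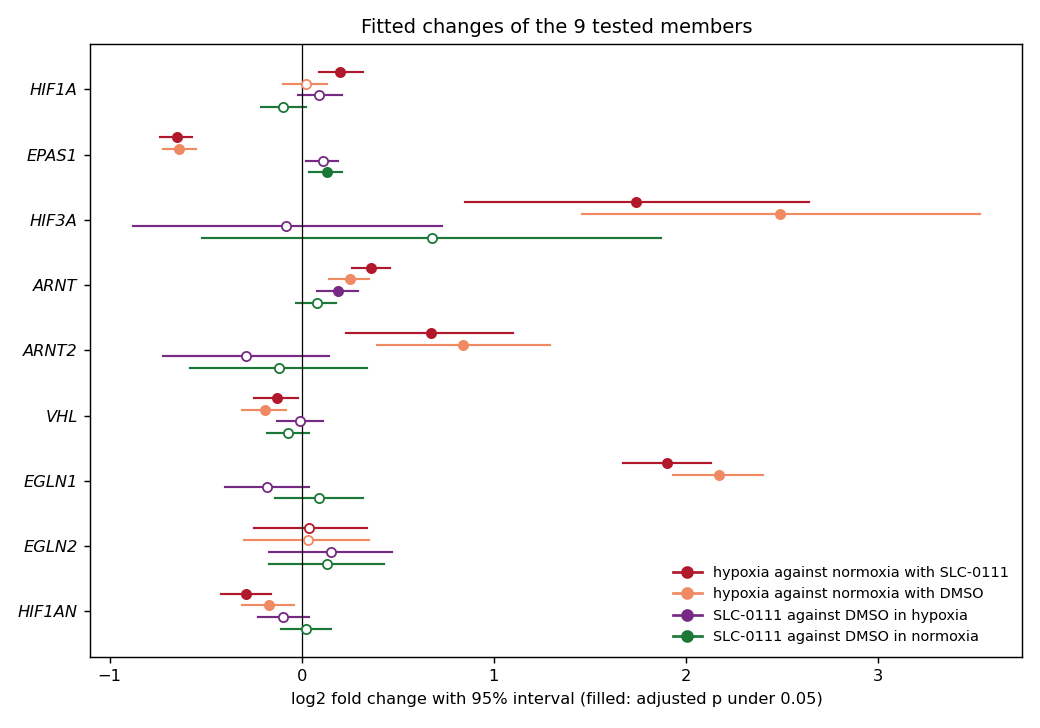
Fitted log2 fold change with its 95% interval for the 9 tested members in the 4 comparisons; filled points passed an adjusted p of 0.05. EGLN1 lies near 2 and EPAS1 near -0.6 in both hypoxia comparisons, while the changes with SLC-0111 lie close to 0 except for the wide intervals of HIF3A.

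HIF1A (ENSG00000100644, chr14:61695513-61748259, GRCh38) encodes the HIF-1 alpha subunit. It had 191.5, 233.3, 193.0 and 220.4 CPM in hypoxia DMSO libraries, against 210.7, 206.0, 206.1 and 209.2 CPM in normoxia DMSO libraries. The hypoxia libraries lay on both sides of the normoxia ones, and the log2 fold change was 0.02 ± 0.05 (SE, adjusted p = 0.816), with a 95% interval of -0.10 to 0.13. With the inhibitor HIF1A had 216.2, 226.5, 232.7 and 220.8 CPM in hypoxia, against 194.0, 195.2, 197.8 and 191.6 CPM in normoxia. These groups did not overlap, and HIF1A rose by 0.20 ± 0.05 on the log2 scale (adjusted p = 0.00254). Without hypoxia DMSO replicates 1 and 3 the change with DMSO was 0.13 (adjusted p = 0.0181). Those were the lowest HIF1A libraries of the group, so leaving them out raises the change by construction.

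EPAS1 (ENSG00000116016, chr2:46293667-46386703), which encodes the HIF-2 alpha subunit, was the member that fell most. It had 191.1, 197.2, 188.3 and 185.5 CPM in hypoxia DMSO libraries, against 297.7, 300.8, 290.4 and 295.9 CPM in normoxia DMSO libraries. In SLC-0111 libraries EPAS1 had 206.6, 207.2, 203.5 and 204.2 CPM in hypoxia, against 328.0, 314.7, 335.0 and 314.9 CPM in normoxia. Every hypoxia library lay below every normoxia library. EPAS1 fell by 0.64 ± 0.04 on the log2 scale with DMSO (adjusted p = 4.81e-12) and fell by 0.65 ± 0.04 with SLC-0111 (adjusted p = 2.9e-12). The log2 fold change with SLC-0111 minus that with DMSO was -0.02 ± 0.06 (adjusted p = 0.893, 95% interval -0.14 to 0.10).

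The balance of the alpha subunit RNAs moved with EPAS1. Per length, EPAS1 was 0.647 ± 0.0236 of HIF1A in hypoxia SLC-0111 and 0.646 ± 0.0587 in hypoxia DMSO, against 1.17 ± 0.0277 in normoxia SLC-0111 and 1.00 ± 0.0171 in normoxia DMSO (SD, n = 4 each). EPAS1 thus made up 39.2% and 39.1% of the alpha subunit RNA in hypoxia with SLC-0111 and with DMSO, against 53.9% and 50.1% in normoxia. With the longest coding transcript as length the ratios were 0.702, 0.701, 1.27 and 1.09 in the same order of groups. By exon length the highest hypoxia ratio, 0.704, lay below the lowest normoxia ratio, 0.994.

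HIF3A (ENSG00000124440, chr19:46297046-46343433), whose splice forms include inhibitors of the other alpha subunits, was scarce and higher in hypoxia. Its counts were 33, 19, 10 and 13 in hypoxia DMSO, against 7, 4, 7 and 2 in normoxia DMSO, and 16, 40, 17 and 52 in hypoxia SLC-0111, against 5, 12, 7 and 7 in normoxia SLC-0111. In CPM these were 1.33, 0.593, 2.97 and 0.689 in hypoxia DMSO and 0.825, 1.28, 0.612 and 1.08 in hypoxia SLC-0111, against 0.298, 0.153, 0.224 and 0.0611 in normoxia DMSO and 0.229, 0.431, 0.184 and 0.322 CPM in normoxia SLC-0111. Every hypoxia library lay above every normoxia library. The fitted log2 fold change was 2.49 ± 0.47 with DMSO (adjusted p = 0.000114) and 1.74 ± 0.41 with SLC-0111 (adjusted p = 0.00116). HIF3A passed the low-count filter through its hypoxia libraries, so these calls are partly set by the filter. Without hypoxia DMSO replicates 1 and 3 the change with DMSO was 1.81 (adjusted p = 0.00236). The ratio of pooled CPM, without TMM, was 5.25 (95% exact interval 3.17 to 9.08) with DMSO and 3.45 (2.31 to 5.29) with SLC-0111. The highest value, 2.97 CPM, is that of the shallow hypoxia DMSO replicate 3 and rests on 10 counts. HIF3A stayed under 1% of the alpha subunit RNA, with a highest share of 0.559%. Intervals of counts cover counting error only.

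Both beta subunit genes rose modestly. ARNT (ENSG00000143437, chr1:150809705-150876768) encodes a partner of the HIF alpha subunits. It had 53.6, 57.8, 58.3 and 58.4 CPM in hypoxia DMSO, against 49.6, 47.6, 47.5 and 47.0 CPM in normoxia DMSO. With SLC-0111 it had 66.7, 66.9, 63.8 and 61.7 CPM in hypoxia, against 50.1, 51.6, 49.2 and 51.2 CPM in normoxia. The groups did not overlap in either comparison, and ARNT rose by 0.25 ± 0.05 with DMSO (adjusted p = 0.000161) and by 0.36 ± 0.05 on the log2 scale with SLC-0111 (adjusted p = 9.54e-07).

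ARNT2 (ENSG00000172379, chr15:80404350-80597937), best known as the partner of bHLH-PAS factors in the nervous system, was rare. It had 2.34, 2.87, 4.46 and 2.49 CPM in hypoxia DMSO, against 1.45, 1.84, 1.60 and 1.25 CPM in normoxia DMSO. With the inhibitor ARNT2 had 1.96, 2.53, 2.38 and 2.06 CPM in hypoxia, against 1.79, 0.970, 1.19 and 1.84 CPM in normoxia. Again the groups did not overlap, with the shallow replicate 3 the highest of hypoxia DMSO. The log2 rise was 0.84 ± 0.21 with DMSO (adjusted p = 0.00160) and 0.67 ± 0.20 with SLC-0111 (adjusted p = 0.00829). Per length ARNT2 remained 2.82%, 4.27%, 2.35% and 2.62% of the beta subunit RNA in hypoxia SLC-0111, hypoxia DMSO, normoxia SLC-0111 and normoxia DMSO.

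VHL (ENSG00000134086, chr3:10141008-10152220), the substrate-binding subunit of the ligase, was slightly lower in hypoxia. It had 111.1, 93.4, 109.1 and 97.8 CPM in hypoxia DMSO, against 122.6, 118.0, 112.1 and 115.5 CPM in normoxia DMSO. In SLC-0111 libraries VHL had 102.3, 98.9, 102.8 and 102.2 CPM in hypoxia, against 116.7, 113.3, 105.7 and 110.4 CPM in normoxia. The groups did not overlap, though the gap with DMSO was only that between 111.1 and 112.1 CPM. VHL fell by 0.19 ± 0.05 with DMSO (adjusted p = 0.00421) and fell by 0.13 ± 0.05 on the log2 scale with SLC-0111 (adjusted p = 0.0377). The call with SLC-0111 is at the edge of the threshold: it was lost when 1 of 10 libraries was left out (any of hypoxia SLC-0111, hypoxia DMSO replicate 3 or unnumbered, normoxia SLC-0111 replicate 1, 3 or unnumbered, or normoxia DMSO replicate 2), with adjusted p between 0.0178 and 0.167 over the 16 such fits. Over all alternatives it held in 10 of 25.

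EGLN1 (ENSG00000135766, chr1:231363751-231425044) encodes PHD2, the main prolyl hydroxylase of HIF-1 alpha, and had the largest fold change among the members above 1 CPM in every library. It had 217.7, 332.5, 242.1 and 320.5 CPM in hypoxia DMSO, against 62.4, 66.1, 62.1 and 58.7 CPM in normoxia DMSO. With SLC-0111 it had 247.3, 262.5, 256.9 and 221.1 CPM in hypoxia, against 68.5, 65.5, 64.0 and 66.7 CPM in normoxia. The lowest hypoxia library lay far above the highest normoxia library. EGLN1 rose 4.49-fold with DMSO (log2 2.17 ± 0.11, adjusted p = 1.74e-11) and 3.73-fold with SLC-0111 (log2 1.90 ± 0.11, adjusted p = 1.32e-10).

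Per length, EGLN1 moved relative to the other parts of the sensor. It was 0.781 ± 0.0503 of HIF1A in hypoxia SLC-0111 and 0.934 ± 0.106 in hypoxia DMSO, against 0.241 ± 0.00940 in normoxia SLC-0111 and 0.212 ± 0.0118 in normoxia DMSO. Relative to VHL it was 1.41 ± 0.119 and 1.60 ± 0.454 in hypoxia with SLC-0111 and with DMSO, against 0.344 ± 0.00758 and 0.309 ± 0.0163 in normoxia (SD, n = 4 each). As counted here, EGLN1 made up most of the prolyl hydroxylase RNA in every group. Its share was 95.9% and 96.7% in hypoxia with SLC-0111 and with DMSO, against 86.7% and 87.0% in normoxia. With the longest coding transcript as length these shares were 91.2% and 92.9% in hypoxia with SLC-0111 and with DMSO, against 74.2% and 74.6% in normoxia. Both sets of shares are uncertain, since 30.6% of the EGLN2 exon bases are shared with the readthrough gene RAB4B-EGLN2. Whether reads there are missing from the EGLN2 counts was not tested.

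EGLN2 (ENSG00000269858, chr19:40798996-40808433), which encodes PHD1, showed no change past the threshold. It had 5.56, 9.52, 8.03 and 10.9 CPM in hypoxia DMSO, against 8.13, 8.28, 7.53 and 9.65 CPM in normoxia DMSO. With SLC-0111 it had 9.07, 10.1, 8.60 and 10.1 CPM in hypoxia, against 8.17, 9.77, 10.4 and 8.18 CPM in normoxia. The groups overlapped in both comparisons. The log2 fold change was 0.03 ± 0.15 with DMSO (adjusted p = 0.905, 95% interval -0.30 to 0.35) and 0.04 ± 0.14 with SLC-0111 (adjusted p = 0.823, interval -0.25 to 0.34). Its level is uncertain, since 30.6% of its exon bases are shared with the readthrough gene RAB4B-EGLN2, which had 0 counts in all 16 libraries.

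EGLN3 (ENSG00000129521, chr14:33924231-34462774), which encodes PHD3 and is a hypoxia-responsive gene in many cell types, was barely detected. It had 4, 3, 0 and 0 counts in hypoxia DMSO, and in all 4, 2 and 2 counts in hypoxia SLC-0111, normoxia SLC-0111 and normoxia DMSO. A library at 0 allows up to 3 counts, which is 0.103 to 0.910 CPM over the libraries at 0 for EGLN3. The ratio of pooled CPM in hypoxia to normoxia was 4.90 with DMSO (95% exact interval 0.933 to 48.4) and 1.71 with SLC-0111 (0.245 to 18.9), so a change was not detectable at this depth.

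HIF1AN (ENSG00000166135, chr10:100529072-100559998), the hydroxylase that keeps HIF alpha from its coactivators, fell. It had 86.2, 71.1, 94.6 and 81.6 CPM in hypoxia DMSO, against 91.4, 90.2, 93.9 and 94.9 CPM in normoxia DMSO. With SLC-0111 it had 71.9, 77.3, 74.6 and 82.9 CPM in hypoxia, against 93.7, 95.6, 94.6 and 91.0 CPM in normoxia. With SLC-0111 the groups did not overlap, and HIF1AN fell by 0.29 ± 0.06 on the log2 scale (adjusted p = 0.000384). With DMSO, hypoxia replicate 3 lay among the normoxia libraries, and HIF1AN fell by 0.17 ± 0.06 (adjusted p = 0.0243). That call was lost without hypoxia DMSO replicate 2 (adjusted p = 0.170), the unnumbered hypoxia DMSO library (0.0599), normoxia DMSO replicate 3 (0.0547) or normoxia DMSO replicate 4 (0.0602), and over all alternatives it held in 18 of 25.

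**Figure D3:**
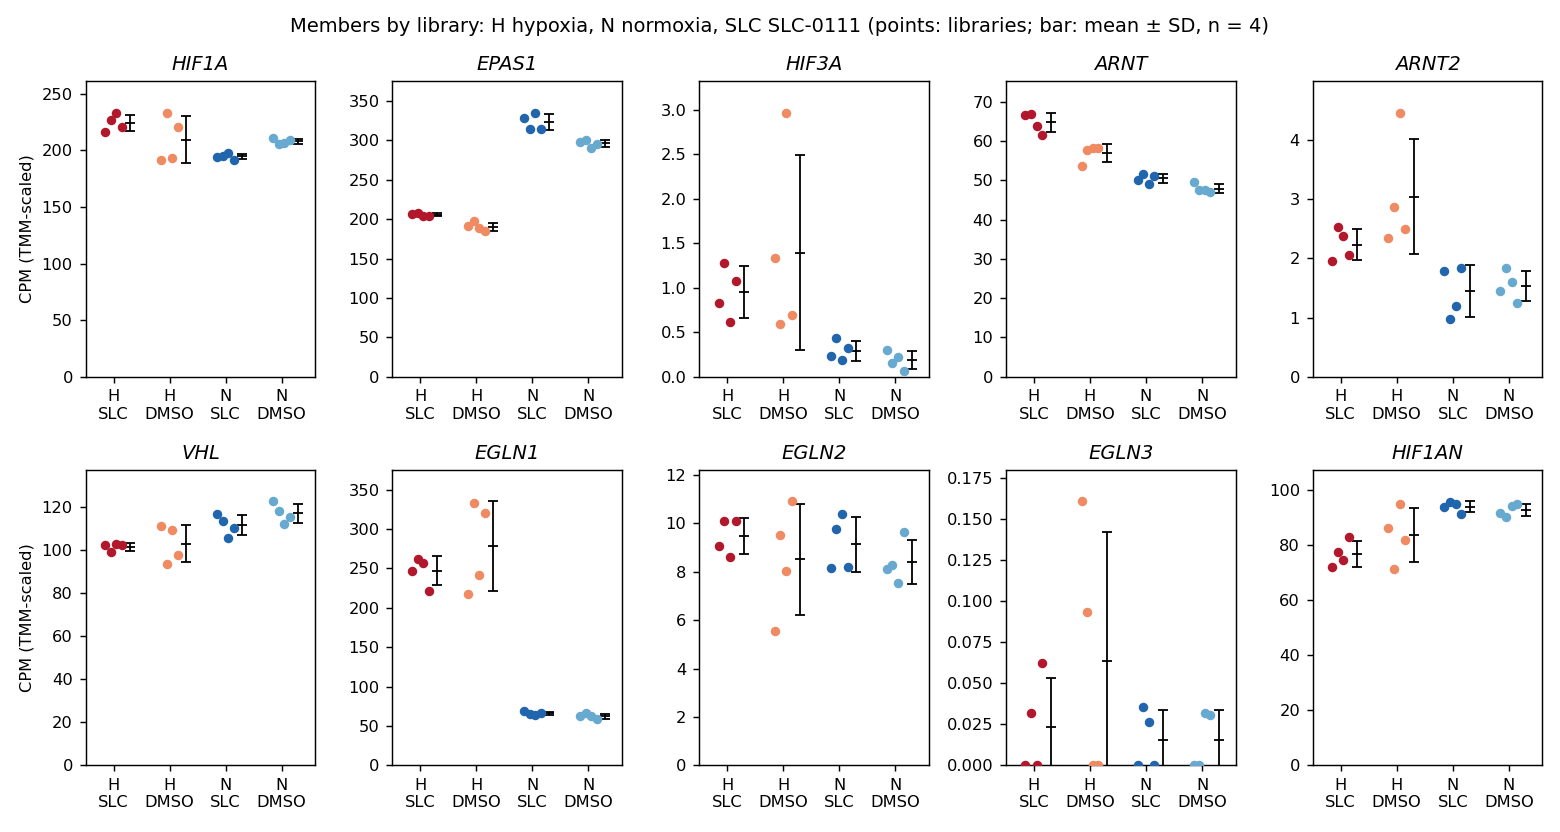
CPM of each member in the 16 libraries, with the mean and SD of each group of 4 beside the points (H hypoxia, N normoxia, SLC the inhibitor); each panel has its own axis from 0. EGLN1 stands above and EPAS1 below its normoxia level in every hypoxia library. Hypoxia DMSO has the largest SD of the groups in every member except EPAS1 and ARNT.

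The hypoxia DMSO libraries fell into the same pairs for several members. Replicate 2 and the unnumbered library were above replicates 1 and 3 in HIF1A, EGLN1 and EGLN2, and below them in HIF3A, VHL and HIF1AN. The median log2 level of 32 textbook HIF target genes over the normoxia DMSO mean was 2.26, 2.69, 2.44 and 2.50 in these libraries, and CA9 had 45.0, 61.8, 58.9 and 58.9 CPM. Replicate 1 had the lowest value of both. Each test was also run without replicates 1 and 3. That pair is described by the members' own values and was chosen with earlier results of these data known. For the members named here, the direction in which that fit shifts was thus set by the choice. Its p-values are no separate support.

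For SLC-0111, 1 of the 9 tested members passed at each oxygen level, too small a count to set apart from the share of all tested genes. In normoxia 1 member rose, EPAS1, and 0 fell, where 12.4% of all tested genes rose and 11.2% fell. In hypoxia 1 rose, ARNT, and 0 fell, where 9.14% rose and 7.11% fell. With library size alone in place of TMM, 30.8% of the calls in normoxia and 33.1% of those in hypoxia were higher, against 52.4% and 56.3% with TMM. The median log2 fold change of the tested members was 0.08 in normoxia, against 0.02 over all genes, and -0.01 in hypoxia, against -0.01. At an unadjusted p under 0.05, 0 members were lower at either oxygen level by edgeR with TMM over all libraries, and by DESeq2. By edgeR with library size alone, 2 were lower in normoxia and 2 in hypoxia. Without hypoxia DMSO replicates 1 and 3, 1 was lower at each oxygen level. By DESeq2, EPAS1 also passed in hypoxia (log2 0.10, adjusted p = 0.0432), which gives 2 members higher there.

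EPAS1 was higher with SLC-0111 in normoxia, by 0.13 ± 0.04 on the log2 scale (adjusted p = 0.0228). The 2 groups did not overlap, as the lowest SLC-0111 library had 314.7 CPM and the highest DMSO library 300.8 CPM. In hypoxia the difference was 0.11 ± 0.04 (adjusted p = 0.0757), and there too the lowest SLC-0111 library (203.5 CPM) exceeded the highest DMSO library (197.2 CPM). Without normoxia SLC-0111 replicate 4 the hypoxia difference passed (adjusted p = 0.0485). The normoxia call ended with scaling by library size alone (log2 0.05, adjusted p = 0.437), without the low-count filter (adjusted p = 0.191), and without normoxia SLC-0111 replicate 1 (0.0574) or 4 (0.0571) or normoxia DMSO replicate 1 (0.0523), 2 (0.0571), 3 (0.0748) or 4 (0.0512).

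ARNT was higher with SLC-0111 in hypoxia by 0.19 ± 0.05 on the log2 scale (adjusted p = 0.00778). Its lowest SLC-0111 library had 61.7 CPM and its highest DMSO library 58.4 CPM. With library size alone the difference was 0.12 (adjusted p = 0.141). In normoxia it was 0.08 ± 0.05 (adjusted p = 0.269), and the groups overlapped.

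EGLN1 averaged 246.9 ± 18.3 CPM in hypoxia SLC-0111 and 278.2 ± 56.9 CPM in hypoxia DMSO (SD, n = 4 each), with overlapping libraries. The log2 fold change was -0.18 ± 0.10 (adjusted p = 0.270, 95% interval -0.40 to 0.04). It depended on which hypoxia DMSO libraries were in the fit: without hypoxia DMSO replicate 1 it was -0.29 (adjusted p = 0.0131), and without replicates 1 and 3 it was -0.40 (adjusted p = 2.78e-05). Replicates 1 and 3 had the lowest EGLN1 values of hypoxia DMSO, so leaving them out makes the difference more negative by construction. In normoxia EGLN1 averaged 66.2 ± 1.91 CPM with SLC-0111 and 62.3 ± 3.03 CPM with DMSO, a log2 fold change of 0.09 ± 0.11 (adjusted p = 0.614).

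HIF1A averaged 194.6 ± 2.57 CPM with SLC-0111 and 208.0 ± 2.35 CPM with DMSO in normoxia (SD, n = 4 each). These groups did not overlap, but the log2 fold change of -0.10 ± 0.05 did not pass (adjusted p = 0.203). It passed with library size alone (-0.17, adjusted p = 0.0177), in a fit of the normoxia groups alone (adjusted p = 0.0285) and without hypoxia DMSO replicates 1 and 3 (adjusted p = 0.0347). In hypoxia it was 0.09 ± 0.05 (adjusted p = 0.281), and it passed only without hypoxia DMSO replicate 2 (0.15, adjusted p = 0.0481). HIF1AN was -0.10 ± 0.06 in hypoxia (adjusted p = 0.331), and it too passed only without that library (-0.17, adjusted p = 0.0412). Replicate 2 had the highest HIF1A and the lowest HIF1AN value of hypoxia DMSO. Leaving it out thus moves both differences in these directions by construction. The remaining members were not called for SLC-0111 at either oxygen level, with HIF3A and ARNT2 the least precise: their 95% intervals were -0.52 to 1.87 and -0.58 to 0.34 in normoxia, and -0.88 to 0.73 and -0.72 to 0.14 in hypoxia.

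Whether the inhibitor acted differently at the 2 oxygen levels was tested as the SLC-0111 effect in hypoxia minus that in normoxia. By edgeR 0 members passed, where 5.99% of all tested genes did, and by DESeq2 0 passed as well. At an unadjusted p under 0.05 there was 1, HIF1A, with a difference of 0.19 ± 0.07 on the log2 scale (unadjusted p = 0.0199, adjusted p = 0.144). HIF1A passed only without hypoxia DMSO replicate 2 (0.24, adjusted p = 0.0398) among the 24 alternatives. That library had the highest HIF1A value of hypoxia DMSO, so leaving it out raises the difference by construction. For EGLN1 the difference was -0.27 ± 0.15 (adjusted p = 0.310). It was -0.37 without hypoxia DMSO replicate 1 (adjusted p = 0.0296) and -0.47 without replicates 1 and 3 (adjusted p = 0.000192). The same limit holds, as these libraries had the lowest EGLN1 values of hypoxia DMSO.

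The other genes of the pathway were taken in lists. Among 16 partners of the VHL ligase and genes of HIF turnover, 4 rose and 8 fell in hypoxia with DMSO (median log2 -0.17), and 4 rose and 3 fell with SLC-0111 (-0.08). The median over all tested genes was -0.00 with DMSO and -0.03 with SLC-0111. Of all tested genes, 25.0% rose and 24.8% fell in hypoxia with DMSO, and 23.9% rose and 24.3% fell with SLC-0111. For SLC-0111 against DMSO, 12.4% were higher and 11.2% lower in normoxia, and 9.14% higher and 7.11% lower in hypoxia. The counts of this list and of the lists below are to be read beside these shares. ELOB, of the elongin complex that joins VHL to its cullin, averaged 167.3 ± 11.6 CPM in hypoxia DMSO and 207.9 ± 7.15 CPM in normoxia DMSO (log2 -0.31, adjusted p = 0.000151). HSP90AA1, a chaperone of HIF alpha, fell by 0.58 on the log2 scale (adjusted p = 1.16e-09), to 958.9 ± 66.9 CPM in hypoxia DMSO, against 1433.9 ± 35.2 CPM in normoxia DMSO. SIAH1, a ligase that targets prolyl hydroxylases, rose in both comparisons, by 0.54 with DMSO and 0.73 with SLC-0111 (adjusted p = 8.46e-05 and 7.51e-07). Without hypoxia DMSO replicates 1 and 3 the counts with DMSO were 2 higher and 10 lower. In normoxia SLC-0111 lowered 5 of the 16, with HSP90AA1 at 1143.4 ± 20.9 CPM (log2 -0.33, adjusted p = 3.82e-05) and RBX1, the ring subunit of the ligase, at 35.8 ± 2.52 CPM, against 42.9 ± 1.67 CPM with DMSO (log2 -0.26, adjusted p = 0.00612).

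Of 9 tested coactivators and inhibitors of HIF, 5 rose and 1 fell in hypoxia with DMSO (median 0.23), and 6 rose and 1 fell with SLC-0111 (0.22). CITED2, which competes with HIF alpha for EP300 and CREBBP, averaged 560.3 ± 85.6 CPM in hypoxia DMSO and 150.4 ± 4.93 CPM in normoxia DMSO (log2 1.90, adjusted p = 1.02e-15). It was also the gene of this list that SLC-0111 lowered in hypoxia, to 449.0 ± 17.8 CPM (log2 -0.32, adjusted p = 0.00277). EP300 rose by 0.20 with DMSO (adjusted p = 0.000957) and CREBBP by 0.44 with SLC-0111 (adjusted p = 0.000132).

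Other dioxygenases that use oxygen and 2-oxoglutarate, or oxygen alone, mostly rose: 9 of 13 tested with DMSO, where 3 fell (median 0.46), and 8 with SLC-0111, where 3 fell (0.46). The histone demethylase KDM3A averaged 195.0 ± 36.4 CPM in hypoxia DMSO and 42.5 ± 2.28 CPM in normoxia DMSO (log2 2.20, adjusted p = 8.86e-13). The DNA demethylase TET1 averaged 149.0 ± 44.7 CPM in hypoxia DMSO and 34.4 ± 0.658 CPM in normoxia DMSO (log2 2.14, adjusted p = 8.79e-08). KDM4B, another histone demethylase, rose by 1.19 with DMSO (adjusted p = 4.03e-13). In hypoxia SLC-0111 lowered 3 genes of this list. By edgeR it raised 0 (1 at an unadjusted p under 0.05), and by DESeq2 it lowered 4 and raised 0. Without hypoxia DMSO replicates 1 and 3 it lowered 6. That pair of libraries was chosen with earlier results of these data known, so the 6 are no separate support.

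Enzymes that make or use 2-oxoglutarate, succinate and fumarate, a cosubstrate and inhibitors of the hydroxylases, mostly fell. Of 16, 12 fell and 1 rose with DMSO (median -0.35), and 9 fell and 1 rose with SLC-0111 (-0.18). GLUD1, which turns glutamate into 2-oxoglutarate, averaged 545.0 ± 32.1 CPM in hypoxia DMSO and 1021.9 ± 14.6 CPM in normoxia DMSO (log2 -0.91, adjusted p = 8.61e-12). The gene that rose was IDH2, the mitochondrial isocitrate dehydrogenase (log2 0.62 with DMSO, adjusted p = 1.14e-06). In hypoxia SLC-0111 raised 4 of the 16, GLUD1 among them at 668.7 ± 19.9 CPM (log2 0.30, adjusted p = 0.00105). It lowered 0 by edgeR, also at an unadjusted p under 0.05, and 0 by DESeq2.

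Of 11 tested bHLH-PAS factors outside the HIF group, 5 fell and 1 rose in hypoxia with DMSO (median -0.14), and 7 fell and 0 rose with SLC-0111 (-0.29). NCOA3, a nuclear receptor coactivator, averaged 338.4 ± 50.4 CPM in hypoxia DMSO and 609.0 ± 21.9 CPM in normoxia DMSO (log2 -0.84, adjusted p = 8.95e-10). AHR, the dioxin receptor and another partner of ARNT, fell by 0.47 with DMSO (adjusted p = 3.74e-05). In hypoxia against normoxia with SLC-0111, 1 of the 11 was higher at an unadjusted p under 0.05 by edgeR, and DESeq2 called 0 higher.

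The readout of the sensor, 32 textbook HIF targets, rose almost as a whole: 31 with DMSO (median 2.53) and 29 with SLC-0111 (2.31). By edgeR 0 fell in either comparison, also at an unadjusted p under 0.05, and by DESeq2 0 fell. PDK1 averaged 290.6 ± 55.8 CPM in hypoxia DMSO and 10.4 ± 0.432 CPM in normoxia DMSO. CA9, the gene of the compound's target CAIX, had 22.9 to 30.0 CPM in hypoxia SLC-0111 and 45.0 to 61.8 CPM in hypoxia DMSO, and at most 0.160 CPM in any normoxia library. In hypoxia SLC-0111 lowered 14 of the 32 and raised 1 (median -0.22), and without hypoxia DMSO replicates 1 and 3 it lowered 18. Replicates 1 and 3 had the lowest median target levels of hypoxia DMSO, so leaving them out favours a lowering.

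**Figure D4:**
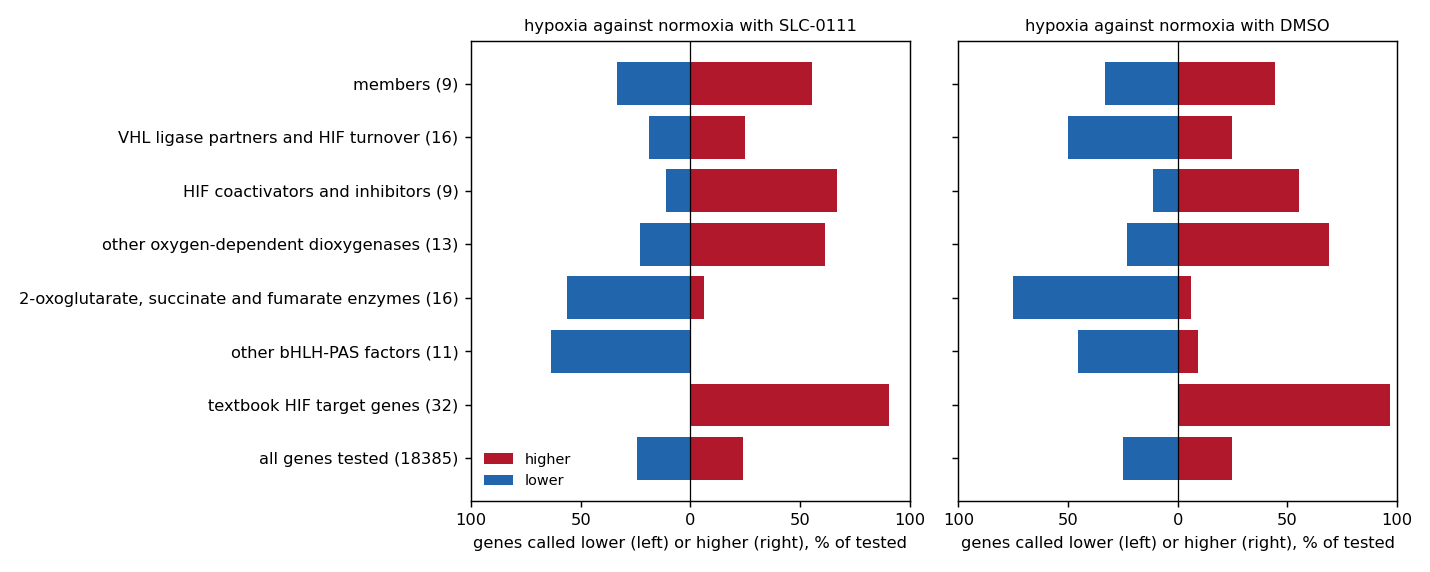
Share of tested genes called higher (right) and lower (left) in hypoxia with SLC-0111 and with DMSO, for the members, each pathway list and all tested genes; numbers in brackets are genes tested. The target list is almost wholly higher (29 of 32 with SLC-0111 and 31 of 32 with DMSO), and of the 2-oxoglutarate enzymes 9 of 16 with SLC-0111 and 12 of 16 with DMSO are lower.

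Among 10304 protein-coding genes, those whose pattern over the 16 libraries was nearest to EGLN1 were MXI1, KDM3A and ITGA5. Likeness was the root mean square difference of log2 CPM after centring each gene on its own mean, and it was 0.064, 0.088 and 0.110. MXI1, a MAX-binding repressor, averaged 97.1 ± 6.92 CPM in hypoxia SLC-0111, 107.2 ± 26.3 in hypoxia DMSO, 25.2 ± 0.541 in normoxia SLC-0111 and 23.8 ± 1.97 CPM in normoxia DMSO. For the scarcer members the distances were larger. For ARNT2 the nearest were CCDC24, INAFM2 and MAP2K1 (0.236 to 0.246), and for HIF3A they were APOBEC3F, PDGFB and SLC10A1 (0.563 to 0.566). ARNT2 had 15 to 99 counts per library and HIF3A 2 to 52, and counting error adds to these distances. They thus do not show whether other genes share the patterns of ARNT2 and HIF3A.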

How the data were processed

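The authors deposited a table of raw read counts per gene for 16 libraries of total RNA, with 58735 genes. Per the submitters' processing notes, HISAT2, HTSeq, MultiQC 1.10.1 and edgeR 3.4.0 were used with GRCh38. The strand setting of the counting is not given in the sources used here, so reads of overlapping genes on opposite strands cannot be told apart. All 58735 gene IDs and positions matched GENCODE 29.

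Counts were tested with edgeR 4.0.16 (R 4.3.3, limma 3.58.1): its default filter on low counts, TMM scaling, 1 mean per group in a single fit of all 4 groups (12 residual degrees of freedom), the robust quasi-likelihood test and Benjamini-Hochberg adjustment over the 18385 genes that passed. The test was first run on simulated counts. Errors are SE for log2 fold changes and SD for levels; intervals of fold changes come from the SE. Exact intervals of counts, and the 3 counts that a 0 allows, cover counting error only, and library totals of 3.30 to 49.25 M set their width. Replicates are technical per the labels.

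All members are named. From the pathway lists, the genes named are among up to 4 per comparison that were called, did not overlap between groups and reached a mean of 1 CPM in the higher one, by size of change; CA9 is given as the gene of the compound's target. ALB, FOXA1, TTR, AFP, KRT19 and FOXA2 follow the same rule, and other marker genes were chosen after their values were seen. Nearest patterns are the 3 closest protein-coding genes, of at least 5 CPM, for members called and spanning at least 1 on the log2 scale. The members, lists and the library pair left out were chosen with earlier results of these data known. Alternatives were RLE scaling, library size alone, other filters, DESeq2 1.42.0, a fit of only the groups compared, a replicate block, and libraries left out. Sequences came from RefSeq windows.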

Additional observations from a re-analysis of the deposited data

Results flagged for a closer look

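ARNT in hypoxia DMSO replicate 1 was at 53.6 CPM, far from the other 3 libraries of its group, which lay between 57.8 and 58.4 CPM. Its gap to the nearest of them was 0.871 of the range of the group, above Dixon's 95% critical value for 4 values. VHL in hypoxia SLC-0111 replicate 2 was at 98.9 CPM, where the other libraries of the group lay between 102.2 and 102.8 CPM, a gap of 0.854 of the range. Of 36 groups of 4 examined, 2 were set apart in this way, and chance sets apart about 1 in 20 groups.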

How the results depend on the processing

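The rises of EGLN1, HIF3A, ARNT2 and ARNT and the fall of EPAS1 in hypoxia, at both treatments, and the rise of HIF1A and fall of HIF1AN with SLC-0111, held in all 25 alternatives. HIF3A passed the low-count filter through its hypoxia libraries, and only 1 alternative had no such filter. Of all member log2 fold changes under alternatives, 1032 kept their direction and side of the threshold, 39 changed sign, 31 lost the call and 13 gained one; where no cause is given, the cause was not tested. With library size alone, 0 members were higher with SLC-0111 at either oxygen level and 1 was lower in normoxia (HIF1A). HIF1A (-0.01) and EGLN2 (-0.01) in hypoxia with DMSO and HIF1AN (-0.06) with SLC-0111 in normoxia then changed sign, and mean levels moved to 191.4 (HIF1A, normoxia SLC-0111), 215.1 (HIF1A, normoxia DMSO), 199.0 (EPAS1, hypoxia SLC-0111), 306.3 (EPAS1, normoxia DMSO), 49.6 (ARNT, normoxia DMSO), 98.4 (VHL, hypoxia SLC-0111) and 95.8 CPM (HIF1AN, normoxia DMSO). Without the low-count filter, 0 members were higher with SLC-0111 in normoxia, and HIF1A in hypoxia with DMSO (-0.01), VHL with SLC-0111 in hypoxia (0.03) and the EPAS1 difference (0.02) changed sign. When a fit held just the 2 groups of a comparison, 1 member was lower with SLC-0111 in normoxia, and 1972 instead of 2988 of all genes were called for SLC-0111 in hypoxia. DESeq2 gave 2 members higher there. Without hypoxia DMSO replicates 1 and 3, 1 member was lower with SLC-0111 in normoxia (HIF1A), 1 in hypoxia and 1 in the difference (EGLN1 in both), and 2953 instead of 1102 of all genes were called for the difference. The SLC-0111 effect in hypoxia then changed sign for HIF1A (-0.01), HIF3A (0.61), VHL (0.09), EGLN2 (-0.09) and HIF1AN (0.02), as did the difference for EGLN2 (-0.21) and HIF1AN (0.01). That pair of libraries was chosen with earlier results of these data known, so these shifts are no separate support. Leaving out 1 library at a time gave 0 to 1 members higher with SLC-0111 in normoxia, 1 to 2 higher and 0 to 1 lower in hypoxia, 0 to 1 in each direction for the difference, and 691 to 2040 of all genes called for the difference. Values that changed sign ranged from -0.04 to 0.07 (HIF1A) and -0.12 to 0.24 (EGLN2) in hypoxia with DMSO, -0.01 to 0.12 (EGLN2) in hypoxia with SLC-0111, -0.25 to 0.03 (ARNT2, -0.24 without normoxia SLC-0111 replicate 1) and -0.00 to 0.03 (HIF1AN) for SLC-0111 in normoxia, -0.39 to 0.18 (HIF3A), -0.06 to 0.05 (VHL) and -0.05 to 0.31 (EGLN2) for SLC-0111 in hypoxia, and -0.18 to 0.18 for the EGLN2 difference. The labels do not say that a replicate number marks a shared culture or day, and deviations of 18 same-numbered pairs correlated at -0.031 to 0.351, with 8 over 0.1 (0.238 to 0.351 for the 3 pairs of replicate 4), so the numbers were not taken to pair the samples. With the replicate block, over the libraries with a number, HIF1A (-0.01) and EGLN2 (-0.11) in hypoxia with DMSO, EGLN2 in hypoxia with SLC-0111 (-0.03) and HIF1AN with SLC-0111 in normoxia (-0.00) changed sign, the calls of HIF1AN with DMSO (adjusted p = 0.0691) and VHL with SLC-0111 (0.104) were lost, also without the block in those libraries (0.0729 and 0.102), and 1881 of all genes were called for the difference, against 624 in the same libraries without it, where EGLN2 in hypoxia with DMSO was -0.12. The fit of those libraries without the block, and the longest coding transcript as length, were chosen after seeing the data. Low counts limit HIF3A, ARNT2 and EGLN3.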
